A study of Mus musculus with 36 samples.

Results

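The positional homeobox and T-box genes measured here were 55 of the 8251 genes that the array's annotation pairs with a probe set of their own in skeletal muscle RNA. They were all genes whose symbol is Hoxa, Hoxb, Hoxc or Hoxd with a number, or starts with Tbx, Pitx, Pax, Meox, Lbx, Msx or, for the sine oculis homeobox family, with the prefix of Six2 and a number, with Tbxas1 left out. No gene was dropped for a low value. There were 10 Hoxa, 9 Hoxb, 5 Hoxc and 7 Hoxd genes (31 Hox genes), 8 Pax, 5 sine oculis family, 4 Tbx, 3 Msx, 2 Meox and 2 Pitx genes, and no Lbx gene was found. For 10 genes with more than 1 probe set the brightest one on average was used; the other 45 had 1 probe set.

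The tested mice were transgenic for alpha tropomyosin slow, per the labels, in a series titled as a mouse model of nemaline myopathy, a disease of the muscle thin filament. The other mice were wild type. The sources used here do not give the strain, the promoter that drives the transgene, the form of the tropomyosin or the number of founder lines. Diaphragm, tibialis anterior, extensor digitorum longus, gastrocnemius and plantaris were snap frozen at 7 or 10 months of age, and each of the 36 arrays was hybridized with a pool of RNA from 3 to 5 mice. Tibialis anterior and extensor digitorum longus lie at the front of the lower hindlimb, and gastrocnemius and plantaris at its back. In each genotype diaphragm, tibialis anterior and gastrocnemius had 4 arrays each, with 2 at 10 months. Extensor digitorum longus and plantaris had 3 arrays per genotype, with 1 at 10 months; the label of the transgenic extensor digitorum longus array at 10 months says that its scan file is incomplete. The labels do not say whether pools shared mice, so p-values measure the spread between pools, and in whole muscle a smaller number of cells of a type and less RNA per cell cannot be told apart.

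Hox genes lie in 4 chromosomal clusters, and the order of the genes along a cluster matches the order in which they are active along the body axis of the embryo, from head (low numbers) to tail (high numbers). In the limb bud the high-numbered Hoxa and Hoxd genes pattern the segments of the limb. Muscle precursors leave the somites under the control of Pax3, Meox2 and sine oculis family genes such as Six4, and connective tissue cells carry further positional factors, among them several T-box genes. Adult cells from different body sites are known to keep part of this Hox code. The diaphragm takes its muscle precursors from the neck region, and the hindlimb muscles take theirs from the lower trunk.

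The signals are MAS5 intensities scaled to a trimmed mean of 500 per array, and a signal of 100 was taken as the floor. Between 57.4 and 68.4% of all probe sets reached 100 on an array. Tpm3, the mouse gene for slow alpha tropomyosin, had a signal of 1607 to 30550.2 (median 14160.1) on the 18 transgenic arrays and of 831 to 24280.5 (median 11625) on the 18 wild-type arrays. Its log2 difference over the 5 muscles was 0.36 ± 0.18 (SE; limma, Benjamini-Hochberg adjusted p = 0.31), and a second Tpm3 probe set stayed at 101 or below. The labels do not say whether either probe set detects the transgene, so this is no check of the labels. The 2 arrays of each repeated group also differ in whether the scanner's experiment record was filled (replicate 1) or empty (replicate 2).

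Most of these genes gave signals near background. The background was set by 38 probe sets that should find no target in muscle, namely 15 for Bacillus subtilis control transcripts and 23 for genes of the eye, germ cells, pituitary, pancreas and other tissues. A gene was called above background on an array where its signal was at least 100 and at least the 95th percentile of these probe sets, which lay between 162 and 905 (median 293). Hoxa4 and Hoxb8 were above background on all 36 arrays. Tbx15 was above it on 33, Six2 on 31, Six4 on 28, Hoxb6 on 26, Hoxd8 on 25, and Meox2 and Pax4 on 23 arrays each. These 9 genes were the members above background on at least 18 arrays, 28 were above it on 1 to 17 arrays, and 18 on none. The pituitary gene Gh and the sperm gene Tnp1 had the highest mean signals of the reference, and without them the percentile lay between 103 and 808 (median 199.6). Then 17 members were above background on at least 18 arrays, and 11 on none.

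Hoxa4 had the highest signal, 737 to 3440.2 (median 1816) over the 36 arrays, and Hoxb8 followed with 405 to 2522 (median 929). Each rests on 1 probe set that stands alone. The other 3 Hoxa4 probe sets had mean signals of 11.6, 78.5 and 111 against 1847, and the other Hoxb8 probe set had 34.4 against 1079. Hoxa6 was split in the same way, with 235 and 27.5. For these 3 genes the probe sets disagree about whether the gene is detected, so their levels are uncertain.

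Tbx15, a T-box factor of limb and trunk mesenchyme that is also active in fast muscle fibres, had a signal of 310.3 to 1986 (median 1085). Six2, a sine oculis family homeobox factor of kidney progenitors and head and limb mesenchyme, had 158 to 3129.7 (median 674). Hoxd8 had 148 to 2599.8 (median 372). Six4, a factor of muscle precursors, had 60.7 to 860.2 (median 473), and Meox2, a homeobox factor needed for limb muscle, had 148 to 664 (median 377). The rest of the 15 highest were Hoxb6, Pax4, Msx1, Hoxd10, Hoxb7, Hoxc9, Hoxa6 and Tbx6, with medians of 341, 316, 271, 252, 229.95, 255, 233 and 189. Pax4 is known from the endocrine pancreas and Tbx6 from the embryonic mesoderm that forms somites.

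At the low end, 10 genes stayed under 100 on all 36 arrays: Six3, Six5, Six6, Hoxb4, Hoxb9, Hoxd1, Hoxd12, Hoxd13, Pax9 and Msx2. Another 3, Pax6, Hoxd11 and Hoxa13, reached 100 on 3, 5 and 4 arrays. The other 42 genes reached it on at least 6 arrays, and 9 of them did so on all 36. The genes with middle signals were Pax5, Meox1, Msx3, Hoxc8, Hoxc6, Pitx1, Hoxa2, Hoxc5, Hoxa5, Hoxa9, Hoxc4, Hoxb1, Hoxa11, Pax1, Tbx2, Hoxa7, Pitx3, Tbx3, Pax3, Hoxb3 and Hoxb13, with means from 101 (Hoxb13) to 200.1 (Pax5). Hoxa3, Hoxb5, Pax2, Hoxd9, Hoxa10 and Pax8 had means of 72.9 to 91.8.

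**Figure D1:**
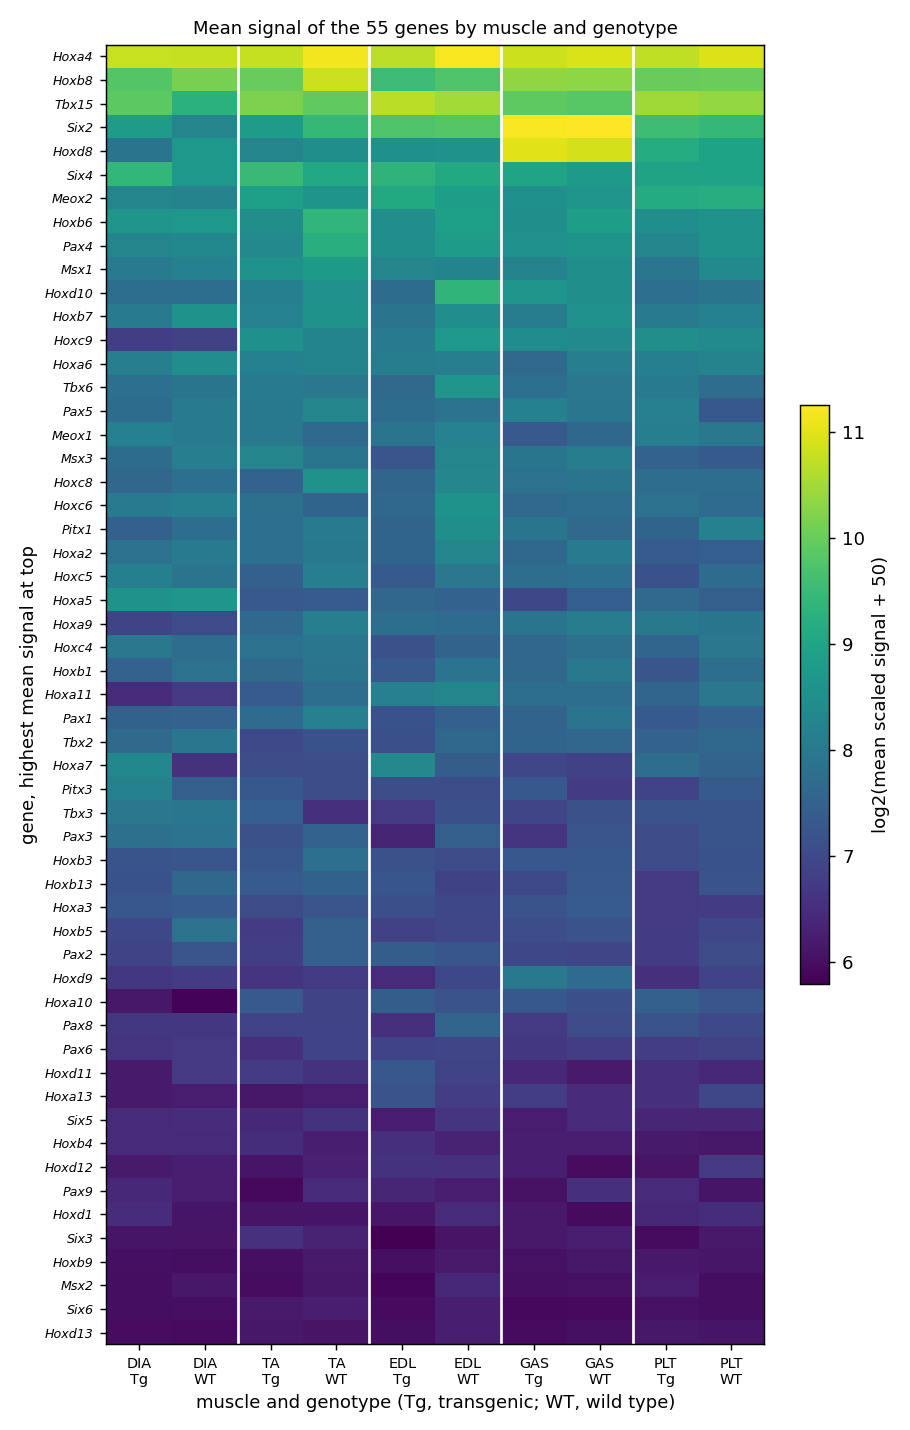
Mean signal of the 55 genes in each muscle and genotype, as log2(mean scaled signal + 50), for diaphragm (DIA), tibialis anterior (TA), extensor digitorum longus (EDL), gastrocnemius (GAS) and plantaris (PLT), transgenic (Tg) left of wild type (WT). Hoxd8 and Six2 are brightest in gastrocnemius of both genotypes, Hoxa5 in diaphragm, and Hoxc9, Hoxa10 and Hoxa11 are darkest in diaphragm.

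The gastrocnemius carried much more signal for Hoxd8 and Six2 than the other 4 muscles. Hoxd8, a gene in the middle of the Hoxd cluster on chromosome 2, had 1503, 2082, 1874 and 2552 in transgenic gastrocnemius, against 148 to 811 (median 259) on the 14 transgenic arrays of the other muscles. In wild-type mice it had 1780, 2599.8, 1197 and 1849 in gastrocnemius, against 185 to 535 (median 372) on the 14 other arrays. No gastrocnemius array overlapped with an array of another muscle in either genotype.

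Six2 (chromosome 17) behaved in the same way. It had 1732, 2749, 1880.3 and 2792 in transgenic gastrocnemius, against 268 to 989.6 (median 478) in the other transgenic muscles. In wild type it had 2015, 3129.7, 2150.2 and 2253 in gastrocnemius, against 158 to 1189 (median 603) in the other muscles. Again the gastrocnemius arrays lay above all others.

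Plantaris lies under gastrocnemius and shares its insertion. Hoxd8 had 467, 811 and 309.7 in transgenic plantaris and 410.4, 535 and 403 in wild-type plantaris. Six2 had 724, 962 and 414 in transgenic plantaris and 922, 317 and 682 in wild-type plantaris. All comparisons below used log2(signal + 50), a linear model with an age term for each muscle, and limma's moderated test over all 12422 probe sets, called at a Benjamini-Hochberg adjusted p under 0.05. In gastrocnemius against plantaris 2 of the 55 genes passed in transgenic mice, where 0.129% of all probe sets passed, and 2 in wild-type mice, where 0.0644% passed. The transgenic test of this pair was added after the data were seen. The log2 difference of Hoxd8 was 1.98 ± 0.28 in transgenic mice (adjusted p = 0.00057) and 1.98 ± 0.28 in wild-type mice (adjusted p = 0.00056; SE, limma). That of Six2 was 1.73 ± 0.33 in transgenic mice (adjusted p = 0.02) and 1.96 ± 0.33 in wild-type mice (adjusted p = 0.0057; limma). Without the only transgenic plantaris array at 10 months neither gene passed in transgenic mice (Hoxd8 1.69, adjusted p = 0.32; Six2 1.22, adjusted p = 1.0; limma), and Six2 also did not pass there without any 1 of 3 further arrays (adjusted p = 0.11 to 0.14). Without wild-type plantaris replicate 2 at 7 months, an array with a high 3′ to 5′ ratio of Gapdh, Six2 had 1.51 in wild-type mice (adjusted p = 0.095; limma).

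The second Hoxd8 probe set showed the same order. Its signal was 2060.4, 1336, 1972 and 1587 in transgenic gastrocnemius, against 322 to 424 in transgenic plantaris and 45.6 to 230.0 in transgenic tibialis anterior and extensor digitorum longus. In wild-type mice it had 1487, 1125, 2018 and 752 in gastrocnemius, against 281 to 363 in plantaris and 108 to 255 in the front muscles. Its log2 difference between gastrocnemius and plantaris was 2.09 ± 0.30 in transgenic mice (adjusted p = 0.00074) and 1.81 ± 0.30 in wild-type mice (adjusted p = 0.0051; limma). Six2 has no second probe set here.

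The neighbours of Hoxd8 in the cluster did not pass. Hoxd9, the next gene, had 356, 97.9, 60.9 and 309 in transgenic gastrocnemius, against 29.6, 37.8 and 62.1 in transgenic plantaris. In wild type it had 232, 60.4, 274 and 71.3 in gastrocnemius, against 129.9, 46.4 and 32.6 in plantaris. Hoxd9 thus reached 100 on 4 of the 8 gastrocnemius arrays, and the log2 difference was 1.28 ± 0.40 in transgenic mice (adjusted p = 0.39; limma). Hoxd10 had means of 357 ± 72.7 in transgenic gastrocnemius and 171 ± 34.7 in transgenic plantaris (SD, n = 4 and 3), and of 316 ± 15.3 and 188 ± 155 in the same wild-type muscles. Hoxd11 reached 100 on 5 arrays, none of them gastrocnemius, and Hoxd12 and Hoxd13 on none.

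**Figure D2:**
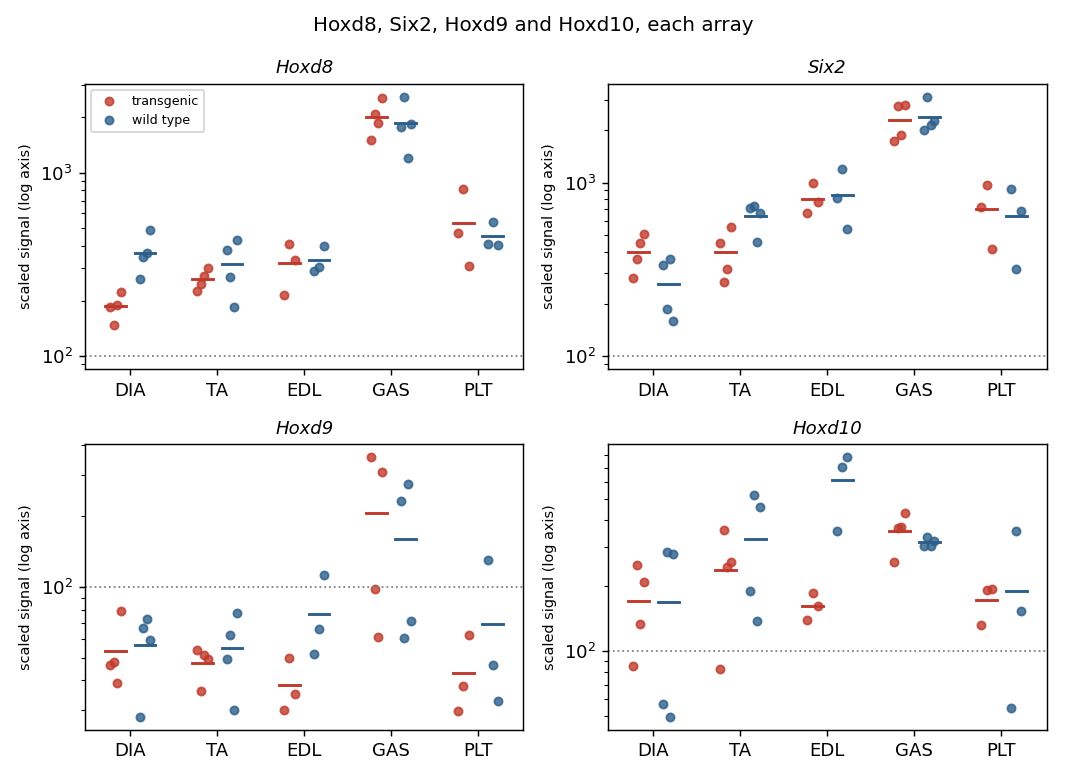
Scaled signal on each array (points, log axis) and group mean (bars) of Hoxd8, Six2, Hoxd9 and Hoxd10 by muscle, transgenic (red) left of wild type (blue), with the floor of 100 dotted. For Hoxd8 and Six2 all 8 gastrocnemius arrays lie above the 28 arrays of the other muscles, and for Hoxd9 they split around the floor.

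Hoxd8 passed between front and back muscles of the hindlimb in both genotypes, and Six2 passed in transgenic mice. In tibialis anterior and extensor digitorum longus Hoxd8 had 215 to 409 (median 272) in transgenic mice, against 309.7 to 2552 (median 1503) in gastrocnemius and plantaris. In wild-type mice it had 185 to 430.1 (median 307) in the front muscles, against 403 to 2599.8 (median 1197) in the back muscles. The front and back ranges overlap only at the plantaris arrays. In transgenic mice 2 of 55 genes passed, where 0.274% of all probe sets did. Hoxd8 had a log2 difference (front minus back) of -1.58 ± 0.20 (adjusted p = 1.5e-05) and Six2 of -1.08 ± 0.24 (adjusted p = 0.035; SE, limma). In wild-type mice 1 of 55 genes passed, where 0.322% of all probe sets did: Hoxd8 had -1.32 ± 0.20 (adjusted p = 0.00026), and Six2 had -0.70 ± 0.24 (adjusted p = 0.28; limma). The transgenic call of Six2 was lost in 12 of the 36 fits that left out 1 array, with adjusted p up to 0.14 (limma). Adiponectin, an adipocyte marker, was also lower in the front muscles. The summed signal of 4 adipocyte markers was 732 to 1780.1 in transgenic front muscles and 2318 to 6233 in transgenic back muscles, and 670 to 2135 and 1978 to 7859 in the same wild-type muscles; its part in the result was not tested.

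Hoxc8, a mid-cluster gene of the thoracic region, had the next lowest unadjusted p in wild-type mice and did not pass (0.69 ± 0.19, adjusted p = 0.15; limma). Its signal was 235 to 424 in wild-type front muscles and 87.8 to 217 in wild-type back muscles, without overlap. In transgenic mice it was 87.9 to 165 in the front muscles and 130.2 to 229.9 in the back muscles. Between tibialis anterior and extensor digitorum longus of wild-type mice 0 of 55 genes passed, where 0.153% of all probe sets did, and 6 had an unadjusted p under 0.05. Hoxc6 was the nearest, with a log2 difference of -1.15 ± 0.28 (adjusted p = 0.12; limma). With the replicate number as a block it passed, the only one of the 55 to do so (-1.19 ± 0.27, adjusted p = 0.048; limma; 0.394% of all probe sets). Pitx1, a hindlimb identity factor, had 121 to 251 in transgenic and 78.4 to 347 in wild-type tibialis anterior, and 51.8 to 222 in transgenic and 100.3 to 523 in wild-type extensor digitorum longus. In the diaphragm it had 65.7 to 303 in transgenic and 141 to 195 in wild-type mice, so its ranges overlapped between limb and diaphragm.

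The bases before the annotated start of Hoxd8 and Six2, the pair that was high in gastrocnemius, and of Hoxa5 and Hoxa11, which differed in opposite directions in the diaphragm as described next, are shown to let their promoters be compared. Each is the 250 bases upstream of the start, from RefSeq on GRCm38.p6, written 5′ to 3′ on the gene's strand. Capitals mark CCAAT or its reverse complement ATTGG, a common promoter element.
Hoxd8: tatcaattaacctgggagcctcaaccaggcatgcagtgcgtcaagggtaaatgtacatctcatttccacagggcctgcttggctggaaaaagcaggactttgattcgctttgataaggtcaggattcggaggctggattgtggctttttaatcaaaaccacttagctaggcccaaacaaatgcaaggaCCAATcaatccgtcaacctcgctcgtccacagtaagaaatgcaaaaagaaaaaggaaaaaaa
Six2: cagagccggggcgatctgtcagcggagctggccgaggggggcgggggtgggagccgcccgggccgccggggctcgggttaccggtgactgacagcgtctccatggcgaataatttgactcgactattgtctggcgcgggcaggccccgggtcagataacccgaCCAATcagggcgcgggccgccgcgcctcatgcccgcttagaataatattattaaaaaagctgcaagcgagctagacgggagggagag
Hoxa5: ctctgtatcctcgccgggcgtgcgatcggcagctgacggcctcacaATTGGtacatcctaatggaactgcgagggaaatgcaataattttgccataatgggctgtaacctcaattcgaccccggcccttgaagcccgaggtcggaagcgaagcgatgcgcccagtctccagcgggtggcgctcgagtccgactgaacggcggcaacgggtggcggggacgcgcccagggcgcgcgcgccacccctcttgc
Hoxa11: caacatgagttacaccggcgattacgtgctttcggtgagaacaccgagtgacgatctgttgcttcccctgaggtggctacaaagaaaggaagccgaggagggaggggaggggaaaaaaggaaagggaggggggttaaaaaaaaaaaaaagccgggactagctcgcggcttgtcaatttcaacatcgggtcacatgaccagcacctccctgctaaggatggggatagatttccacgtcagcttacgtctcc
The stretches are chr2:74704365-74704614 (plus strand) for Hoxd8, chr17:85688255-85688504 (minus strand) for Six2, chr6:52204588-52204837 (minus strand) for Hoxa5 and chr6:52245811-52246060 (minus strand) for Hoxa11. Hoxd8 has 1 CCAAT match that begins 62 bases before the start and Six2 has 1 that begins 87 bases before it, both on the gene's own strand. Hoxa5 has 1 ATTGG match, 204 bases before the start, and Hoxa11 has none. Of all 32851 upstream windows in the table, 33.85% hold this motif on either strand. Six2 also has 2 matches to GGGCGG (in 32.74% of windows) on either strand, and the other 3 stretches have none. No stretch holds TATAAA (12.37% of windows), the homeobox core TAATTA (4.84%) or TGATNNAT, the shape bound by Hox and Pbx proteins together (7.68%), on either strand. The 4 stretches have a G and C content of 44.4, 64.8, 63.6 and 52.0% in the order shown. A match is a description of letters only. In all, 37 of the 55 genes are in the promoter table.

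Between diaphragm and the 4 limb muscles of transgenic mice 11 of the 55 genes passed (20%; 5.57% of all probe sets), 4 higher (3.41% of all) and 7 lower (2.16%). In wild-type mice 10 of 55 passed (18.2%; 15.5% of all probe sets), 3 higher (7.99%) and 7 lower (7.55%). In wild-type mice the members' share was thus near that of all probe sets, and in transgenic mice above it. Hoxa5 and Tbx3 passed as higher in diaphragm in both genotypes, and Hoxa9, Hoxa10, Hoxa11, Hoxc9, Six2 and Meox2 passed as lower in both. The median log2 difference of the 55 genes was -0.01 in transgenic mice and -0.12 in wild-type mice, beside -0.03 and -0.08 over all probe sets. On the scan day at 10 months that held 1 diaphragm and 3 limb arrays of a genotype, 11 of the 11 transgenic calls and 9 of the 10 wild-type calls had the same direction, Hoxb5 in wild type being the exception (-0.11). These arrays also entered the fits that made the calls, which favours the same direction, so this is no separate check of the scan day.

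Markers of other tissues moved with this comparison. Of 18 hepatocyte markers measured, 16 passed as higher in transgenic diaphragm and 17 in wild-type diaphragm. Their summed signal was 8703, 9941, 28929 and 161660.0 on the transgenic diaphragm arrays, given in rising order, against 1272 to 5203 on the transgenic limb arrays. It was 59457 to 199361 on the 4 wild-type diaphragm arrays, against 1560.5 to 4793 on the wild-type limb arrays. The largest marker, Alb (albumin), had 2519 or more on all 8 diaphragm arrays, and no hepatocyte marker was at 0 on any of them. Of 7 mesothelial markers 4 passed as higher in transgenic and 5 in wild-type diaphragm, with sums of 2011 to 3693 in transgenic diaphragm, 446 to 979 in transgenic limb, 2799 to 3991 in wild-type diaphragm and 598 to 1637 in wild-type limb muscles. The adipocyte (3 of 4 in both genotypes), macrophage (3 and 4 of 5) and erythroid (2 of 3 in both) lists also passed mostly as higher, while the 6 skeletal muscle markers held 2 lower in transgenic and 3 lower in wild-type diaphragm. With the hepatocyte marker signal as a covariate 1 gene passed in transgenic and 0 in wild-type mice, in a fit where the limb arrays span little of the covariate's range (limma). The part of the other lists in the results below was not tested.

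Hoxa5, a gene of the neck and upper thorax whose loss in mice affects the lung and diaphragm, was the clearest gene higher in diaphragm. It had 407, 243, 374 and 332 in transgenic diaphragm, against 64.7 to 192 (median 113) on the 14 transgenic limb arrays. In wild type it had 336, 205, 571 and 309.8 in diaphragm, against 63.2 to 184 (median 123) in limb muscles. The groups did not overlap in either genotype. The log2 difference was 1.18 ± 0.19 in transgenic mice (adjusted p = 0.00014) and 1.14 ± 0.19 in wild-type mice (adjusted p = 5e-05; SE, limma). By the background rule Hoxa5 was above background on 4 of 4 transgenic and 2 of 4 wild-type diaphragm arrays, and on 0 limb arrays. The transgenic diaphragm arrays with the lowest and the highest hepatocyte sum had 407 and 243. Even the lowest sum (8703) was above that of every transgenic limb array, and the part of liver RNA in this difference was not tested.

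The paralog Hoxb5, at the same place in the Hoxb cluster, passed in wild-type mice only. It had 90.2, 63.9, 51.0 and 102 in transgenic diaphragm, against 39.5 to 115 (median 61.4) in transgenic limb. It had 235, 197, 68.4 and 213 in wild-type diaphragm, against 54.4 to 178 (median 81.9) in wild-type limb. The groups overlapped in both genotypes, through the array at 68.4 in wild type. Hoxb5 was above background on 1 of the 36 arrays. Its log2 difference was 0.13 ± 0.21 in transgenic mice (adjusted p = 0.87) and 0.66 ± 0.21 in wild-type mice (adjusted p = 0.031; limma). Leaving out any 1 of 3 wild-type diaphragm arrays ended the wild-type call (adjusted p up to 0.23; limma). The test of the transgene effect in diaphragm against that in limb muscles did not pass (adjusted p = 0.85; limma). Hoxc5 had a log2 difference of 0.62 ± 0.31 in transgenic (adjusted p = 0.33) and 0.00 ± 0.31 in wild-type mice (limma).

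Tbx3, a T-box factor of limb margin, heart and lung, was the second gene higher in both genotypes. It had 217, 141, 265 and 181 in transgenic diaphragm, against 8.13 to 169.8 (median 90.8) in transgenic limb. It had 229, 163, 226 and 162 in wild-type diaphragm, against 14.8 to 128 (median 89.2) in wild-type limb. The groups did not overlap in wild type, and in transgenic mice 1 tibialis anterior array reached into the diaphragm range. The fitted difference on the log2 scale was 0.93 ± 0.22 in transgenic mice (adjusted p = 0.0094) and 0.95 ± 0.22 in wild-type mice (adjusted p = 0.0028; limma). By the background rule Tbx3 was above background on 1 of 4 transgenic and 2 of 4 wild-type diaphragm arrays, so its detection is uncertain. The related Tbx2 did not pass in either genotype.

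Hoxc9 (chromosome 15), which marks the lower thorax, had the largest fall among the Hox genes. It had 56.7, 52.1, 85.3 and 55.8 in transgenic diaphragm, against 88.9 to 433 (median 284) in transgenic limb. It had 55.9, 45.3, 90.9 and 68.5 in wild-type diaphragm, against 208 to 478 (median 287) in wild-type limb. The groups did not overlap in either genotype, although 1 transgenic extensor digitorum longus array at 88.9 came near. The log2 difference was -1.55 ± 0.21 in transgenic mice (adjusted p = 9.1e-06) and -1.61 ± 0.21 in wild-type mice (adjusted p = 1e-06; limma). All 8 diaphragm arrays were under the floor of 100, so these differences depend on the pseudocount and on background in the diaphragm. On the transgenic diaphragm arrays with the lowest and the highest hepatocyte sum Hoxc9 had 56.7 and 52.1, and the part of liver RNA was not tested here either.

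The neighbouring Hoxa9, Hoxa10 and Hoxa11 (chromosome 6), of which Hoxa10 and Hoxa11 pattern the upper and lower limb segments, fell together. Hoxa9 had 47.3, 59.3, 63.0 and 115 in transgenic diaphragm, against 99.0 to 287 (median 165) in transgenic limb. It had 75.7, 66.8, 59.9 and 136 in wild-type diaphragm, against 98.7 to 309 (median 183) in wild-type limb. In each genotype 1 diaphragm array, replicate 2 at 10 months, lay within the limb range. The log2 difference of Hoxa9 was -0.93 ± 0.22 in transgenic mice (adjusted p = 0.0078) and -0.91 ± 0.22 in wild-type mice (adjusted p = 0.0033; limma).

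Hoxa10 had 15.8, 2.23, 59.1 and 5.76 in transgenic diaphragm, against 50.03 to 217 (median 108) in transgenic limb. It had 12.03, 3.60, 10.4 and 4.83 in wild-type diaphragm, against 7.03 to 183 (median 86.8) in wild-type limb. The diaphragm signals are at background, and the limb signals reached 100 on 7 of 14 transgenic and 5 of 14 wild-type arrays. The fitted difference on the log2 scale was -1.25 ± 0.29 in transgenic mice (adjusted p = 0.007) and -1.22 ± 0.29 in wild-type mice (adjusted p = 0.0031; limma).

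Hoxa11 had 16.5, 25.3, 86.1 and 18.7 in transgenic diaphragm, against 56.7 to 288 (median 160.2) in transgenic limb. It had 19.4, 17.8, 63.6 and 116 in wild-type diaphragm, against 138 to 326 (median 180.1) in wild-type limb. The groups did not overlap in wild type. The log2 difference was -1.34 ± 0.21 in transgenic mice (adjusted p = 9.9e-05) and -1.35 ± 0.21 in wild-type mice (adjusted p = 2.1e-05; limma). Within the limb its means were 239 ± 48.1 in transgenic and 267 ± 63.2 in wild-type extensor digitorum longus (SD, n = 3 each), and 114 to 202 in the other limb groups. The 3 genes were above background on 1 (Hoxa9), 0 (Hoxa10) and 4 (Hoxa11) of the 36 arrays.

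**Figure D3:**
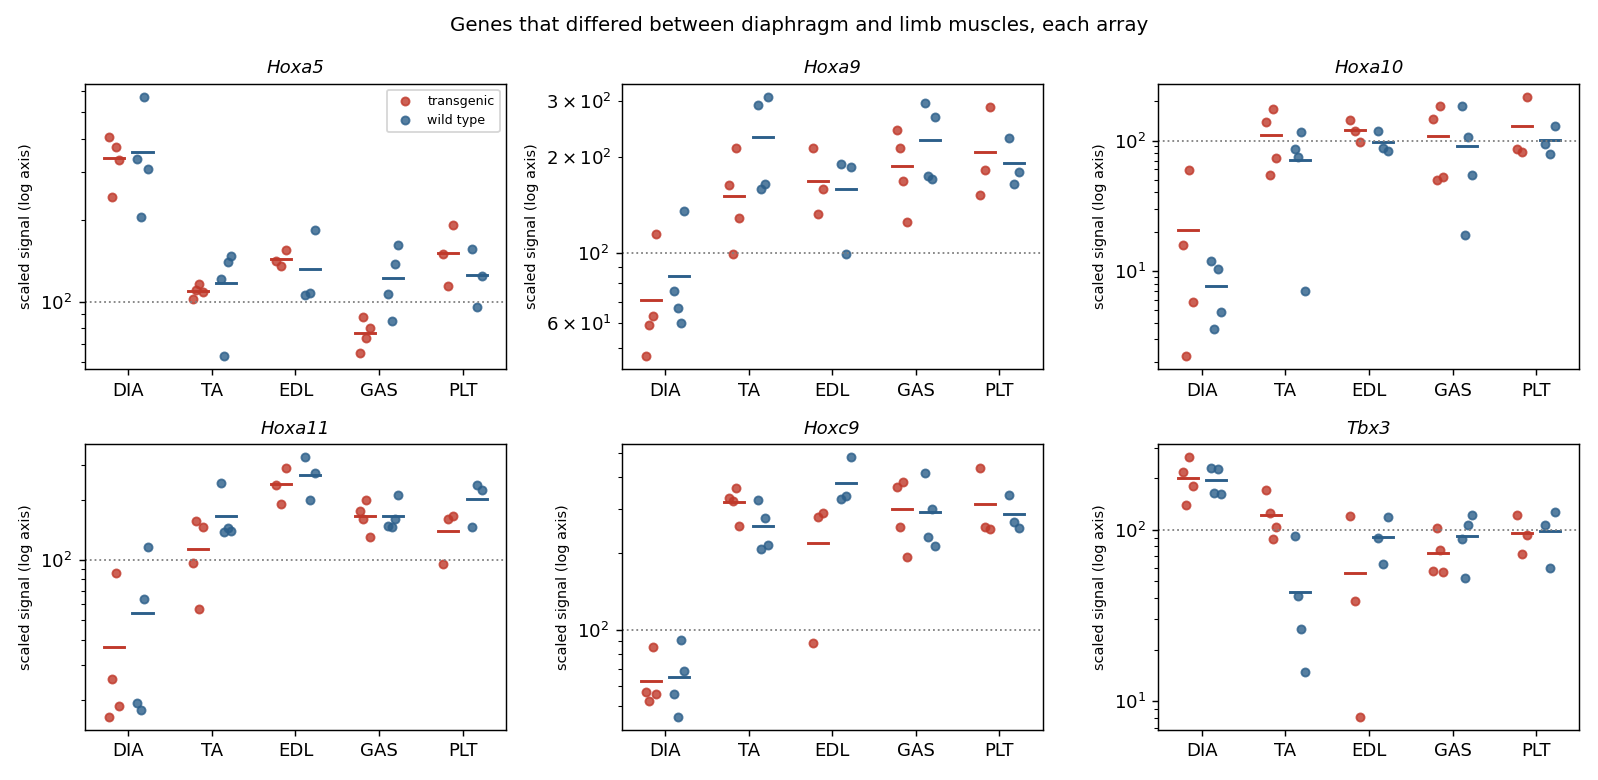
Scaled signal on each array (points, log axis) and group mean (bars) of Hoxa5, Hoxa9, Hoxa10, Hoxa11, Hoxc9 and Tbx3 by muscle, transgenic (red) left of wild type (blue), with the floor of 100 dotted. The diaphragm points lie high for Hoxa5 and Tbx3, and mostly under the floor for the other 4 genes.

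Set against the Hox number, the 19 genes of groups 1 to 8 had a median log2 difference of 0.13 in transgenic mice and -0.06 in wild-type mice, and the 12 genes of groups 9 to 13 had -0.35 and -0.28. In transgenic mice 1 gene of groups 1 to 8 passed as higher (Hoxa5) and 1 as lower (Hoxd8), and in wild-type mice 2 passed as higher (Hoxa5 and Hoxb5) and 0 as lower. Of groups 9 to 13, 0 passed as higher and 4 as lower in both genotypes. Over the 31 genes Pearson's r between Hox number and log2 difference was -0.48 in transgenic and -0.35 in wild-type mice, and Spearman's rho was -0.70 and -0.41. These are descriptions, since the genes share arrays and clusters, and 7 of the 12 genes of groups 9 to 13 reached 100 on at least 6 arrays, against 17 of 19 of groups 1 to 8.

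**Figure D4:**
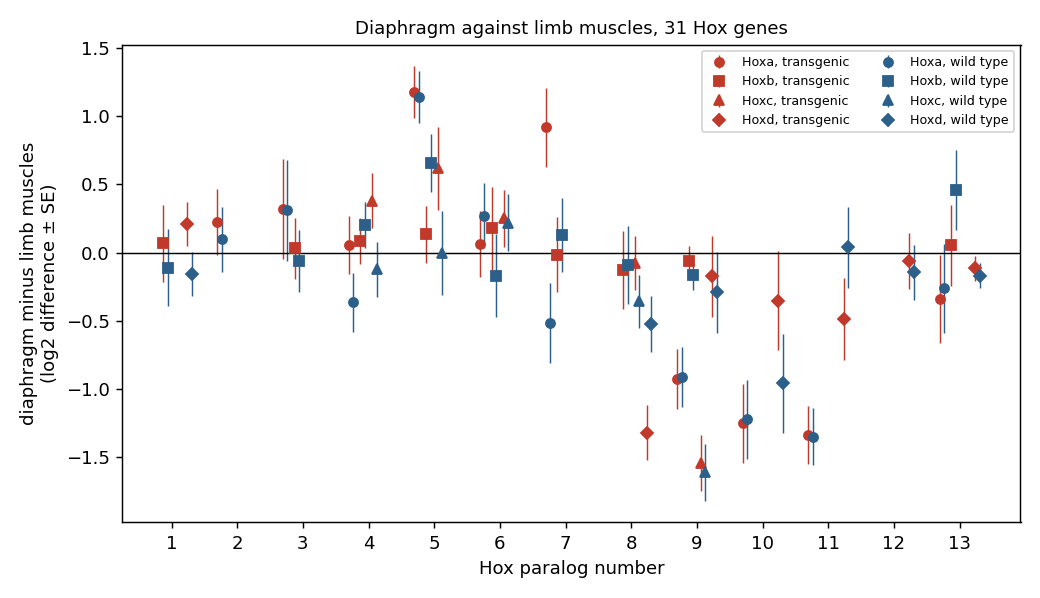
Log2 difference (diaphragm minus limb muscles, ± SE) of the 31 Hox genes against their paralog number, transgenic (red) left of wild type (blue), with a marker shape for each cluster. Hoxa5 stands above 1 in both genotypes, and Hoxa9, Hoxa10, Hoxa11 and Hoxc9 lie between -0.91 and -1.61.

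Six2 also passed as lower in diaphragm in both genotypes, and Hoxd8 did so in transgenic mice. The limb side of this comparison holds gastrocnemius, where both genes were highest. Hoxd8 had 184, 148, 188 and 225 in transgenic diaphragm, against 215 to 811 (median 306) on the 10 transgenic limb arrays without gastrocnemius. It had 262, 347, 366 and 486 in wild-type diaphragm, against 185 to 535 (median 389) on the 10 wild-type limb arrays without gastrocnemius. Over all limb muscles the log2 difference was -1.32 ± 0.20 in transgenic mice (adjusted p = 6.7e-05) and -0.52 ± 0.20 in wild-type mice (adjusted p = 0.084; limma). The second Hoxd8 probe set had -1.23 ± 0.22 in transgenic (adjusted p = 0.00048) and -1.09 ± 0.22 in wild-type mice (adjusted p = 0.00065; limma), so in wild type the probe sets fell on different sides of the threshold.

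Six2 had 282, 360.1, 447 and 506 in transgenic diaphragm, against 268 to 989.6 (median 611) on the 10 transgenic limb arrays without gastrocnemius. It had 333, 187, 364 and 158 in wild-type diaphragm, against 317 to 1189 (median 699) on the 10 wild-type ones. The transgenic diaphragm range lies within that of the limb, and the wild-type one mostly below it. Over all limb muscles the log2 difference was -0.97 ± 0.25 in transgenic mice (adjusted p = 0.015) and -1.68 ± 0.25 in wild-type mice (adjusted p = 7.5e-06; limma).

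Tbx15 had 1158, 438, 1132 and 841 in transgenic diaphragm, against 555 to 1986 (median 1210.3) in transgenic limb. It had 449, 310.3, 996 and 515 in wild-type diaphragm, against 546 to 1800.5 (median 1085) in wild-type limb. The groups overlapped in both genotypes. The fitted difference on the log2 scale was -0.50 ± 0.26 in transgenic mice (adjusted p = 0.37) and -0.97 ± 0.26 in wild-type mice (adjusted p = 0.0085; limma). Its other 2 probe sets had -0.58 ± 0.62 and -0.52 ± 0.54 in wild type and did not pass (adjusted p = 0.63 for both, limma). With the hepatocyte covariate the wild-type difference of Tbx15 was 0.64, in the opposite direction, and did not pass (adjusted p = 1.0; limma). Its means were highest in extensor digitorum longus, with 1591 ± 419 in transgenic and 1397 ± 379 in wild-type mice (SD, n = 3 each), and plantaris followed with 1378 ± 340.3 and 1273 ± 442, within their spread.

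Meox2 had 259, 280.1, 259 and 256 in transgenic diaphragm, against 214 to 664 (median 431) in transgenic limb. It had 148, 241, 389 and 225 in wild-type diaphragm, against 261 to 577 (median 393) in wild-type limb. The log2 difference was -0.60 ± 0.18 in transgenic mice (adjusted p = 0.039) and -0.65 ± 0.18 in wild-type mice (adjusted p = 0.0093; limma). The transgenic call was lost in 12 of 36 fits that left out 1 array, with adjusted p up to 0.20 (limma). Its means were 516 ± 32.7 in transgenic and 538 ± 37.5 in wild-type plantaris (SD, n = 3 each), the highest of the 5 muscles in both genotypes, and 505 ± 90.2 in transgenic extensor digitorum longus, which did not differ beyond the spread.

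Pax3 and Pitx3 passed as higher in the diaphragm in transgenic mice. Each was above background on only 2 of the 36 arrays. Pax3, which drives the migration of muscle precursors, had 196, 181, 98.3 and 223 in transgenic diaphragm, against 14.5 to 166 (median 48.0) in transgenic limb. It had 172, 217, 155 and 188 in wild-type diaphragm, against 27.4 to 221 (median 89.0) in wild-type limb. The groups overlapped in both genotypes, and the log2 difference was 0.99 ± 0.26 in transgenic (adjusted p = 0.017) and 0.55 ± 0.26 in wild-type mice (adjusted p = 0.17; limma).

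Pitx3, a homeobox factor of lens and midbrain that is also active in muscle, had 348, 147, 224 and 257 in transgenic diaphragm, against 19.6 to 212 (median 76.6) in transgenic limb. It had 170.3, 74.1, 116 and 136 in wild-type diaphragm, against 34.5 to 210.1 (median 75.7) in wild-type limb. The fitted difference on the log2 scale was 1.15 ± 0.31 in transgenic mice (adjusted p = 0.024; limma) and the wild-type one did not pass. Each of the 2 calls was lost in 4 fits without 1 array (adjusted p up to 0.16 for Pax3 and 0.14 for Pitx3; limma). For these 2 genes and for Hoxd8, Hoxb5 and Tbx15 the test of the transgene effect in diaphragm against that in limb muscles did not pass in the fit without a block. A call in 1 genotype alone thus shows no difference between genotypes in this comparison. Within the diaphragm, Hoxd8 and Tbx15 passed between genotypes with the replicate number as a block, as given below. With array weights Hoxd8 and Hoxb5 did so. The Hoxd8 and Tbx15 calls between genotypes rest on 1 probe set each, and values of their other probe sets are not given for that comparison.

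Over the 5 wild-type muscles together the F test called 12 of 55 genes, where 11.5% of all probe sets passed. These were Hoxd8 (adjusted p = 1.5e-07), Six2 (adjusted p = 7.5e-07), Hoxc9, Hoxa11, Hoxa5, Tbx3, Hoxa9, Meox2, Hoxa10 and Tbx15 by the tests above, and Hoxc6 (adjusted p = 0.041) and Hoxc8 (adjusted p = 0.045; limma). Hoxc6 had 201, 286 and 527 on the wild-type extensor digitorum longus arrays, given in rising order, and 85.1 to 254 (median 105) in wild-type tibialis anterior. Hoxc8 had 338 ± 90.1 in wild-type tibialis anterior (SD, n = 4) and 269 ± 23.4 in wild-type extensor digitorum longus (SD, n = 3), against 164 to 187 in the other 3 wild-type muscles.

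Transgenic and wild-type muscles differed past the threshold in 1 of these genes, Hoxa7 in the diaphragm, in the fit without a block, and in more of them with the replicate number or the scan day as a block. Averaged over the 5 muscles, transgenic minus wild type called 0 of 55 genes with limma, where 0.7% of all probe sets passed, and 10 had an unadjusted p under 0.05. The nearest were Hoxa7 (log2 difference 0.62 ± 0.17, adjusted p = 0.089) and Hoxc8 (-0.40 ± 0.12, adjusted p = 0.096; limma). In the diaphragm 1 gene passed, where 2.72% of all probe sets did. In tibialis anterior 0 passed (0.113% of all; 5 with an unadjusted p under 0.05), and in extensor digitorum longus 0 (0.00805% of all; 11 at that p). In gastrocnemius and plantaris 0 passed as well, as did 0% of all probe sets. There 1 gene in each had an unadjusted p under 0.05 (limma), beside 308 of all probe sets in gastrocnemius and 249 in plantaris.

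The replicate number coincided with the state of the experiment record, and making it a block moved these counts. Over the 5 muscles 3 of 55 genes then passed, where 4.23% of all probe sets did: Tbx15 (0.26 ± 0.07, adjusted p = 0.035), Hoxc8 (-0.40 ± 0.11, adjusted p = 0.038) and Hoxa7 (0.62 ± 0.17, adjusted p = 0.039; log2, limma). In the diaphragm 3 passed, where 4.35% of all probe sets did. They were Hoxa7 (1.77 ± 0.36, adjusted p = 0.0034), Tbx15 (0.64 ± 0.15, adjusted p = 0.0086) and Hoxd8 (-0.80 ± 0.21, adjusted p = 0.022, log2, limma). For Tbx15 and Hoxd8 only the brightest probe set is given. In tibialis anterior Hoxc8 passed (-1.07 ± 0.23, adjusted p = 0.042; limma; 0.193% of all probe sets). With the scan day as a block, the arrays with no recorded day being 1 level, 6 genes passed over the 5 muscles, where 6.49% of all probe sets did, Hoxa7 and Tbx15 as higher and Hoxb7, Hoxc8, Hoxa2 and Hoxb8 as lower. Hoxa7 alone passed in the diaphragm with that block (adjusted p = 0.03, limma; 0.877% of all probe sets), and 0 of 55 passed in tibialis anterior, where 0.161% of all probe sets did.

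Hoxa7, a thoracic gene of the Hoxa cluster, was the gene that passed in the diaphragm. It had 255, 257, 335 and 257 in transgenic diaphragm, against 34.0, 36.3, 84.9 and 33.6 in wild-type diaphragm. All transgenic arrays lay above the floor and all wild-type arrays below it. By the background rule given earlier, however, Hoxa7 was above background on only 2 of these transgenic arrays. Over all muscles it was above background on 6 of the 18 transgenic arrays and on no wild-type array. The difference therefore does not show that Hoxa7 was detected on each transgenic diaphragm array. The log2 difference was 1.77 ± 0.36 (adjusted p = 0.0058; limma), and leaving out 1 array took the adjusted p to at most 0.051, without wild-type replicate 2 at 10 months. It did not pass with the hepatocyte covariate, nor with the arrays of filled or of empty experiment records alone. The 2 transgenic arrays with the lowest and highest hepatocyte sums had 255 and 257. Of 18 hepatocyte markers 14 passed as lower in transgenic than in wild-type diaphragm, and their part in the Hoxa7 difference was not tested.

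In the other muscles Hoxa7 was variable. It had 383, 261 and 196 in transgenic extensor digitorum longus, against 132, 53.1 and 172 in wild type, a difference that did not pass. In gastrocnemius it had 47.3, 42.2, 41.4 and 169 in transgenic and 136, 33.8, 46.5 and 44.5 in wild-type mice. In tibialis anterior it had 65.7, 66.6, 48.5 and 160.3 in transgenic and 40.04, 53.7, 216 and 34.7 in wild-type mice, so single arrays stood far above the rest in both genotypes. The test of the transgene effect in diaphragm against that in limb muscles called 0 of 55 genes with limma, where 0.427% of all probe sets passed, and 3 had an unadjusted p under 0.05, Hoxa7 among them (1.44 ± 0.41, adjusted p = 0.12). A change of Hoxa7 in the diaphragm alone was therefore not shown.

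Six4 illustrates a difference within the spread. It had 860.2, 619.5, 733 and 295 in transgenic diaphragm, against 356, 227, 465 and 417 in wild-type diaphragm, and the groups overlapped. It did not pass. Hoxc8 in tibialis anterior had 87.9 to 165 in transgenic and 235 to 424 in wild-type mice, without overlap, and a log2 difference of -1.07 ± 0.24 without a block (adjusted p = 0.10; limma). Hoxd10 in extensor digitorum longus had 139, 184 and 160.4 in transgenic mice, against 357, 703 and 779.8 in wild-type mice, with -1.59 ± 0.52 (adjusted p = 0.37; limma).

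**Figure D5:**
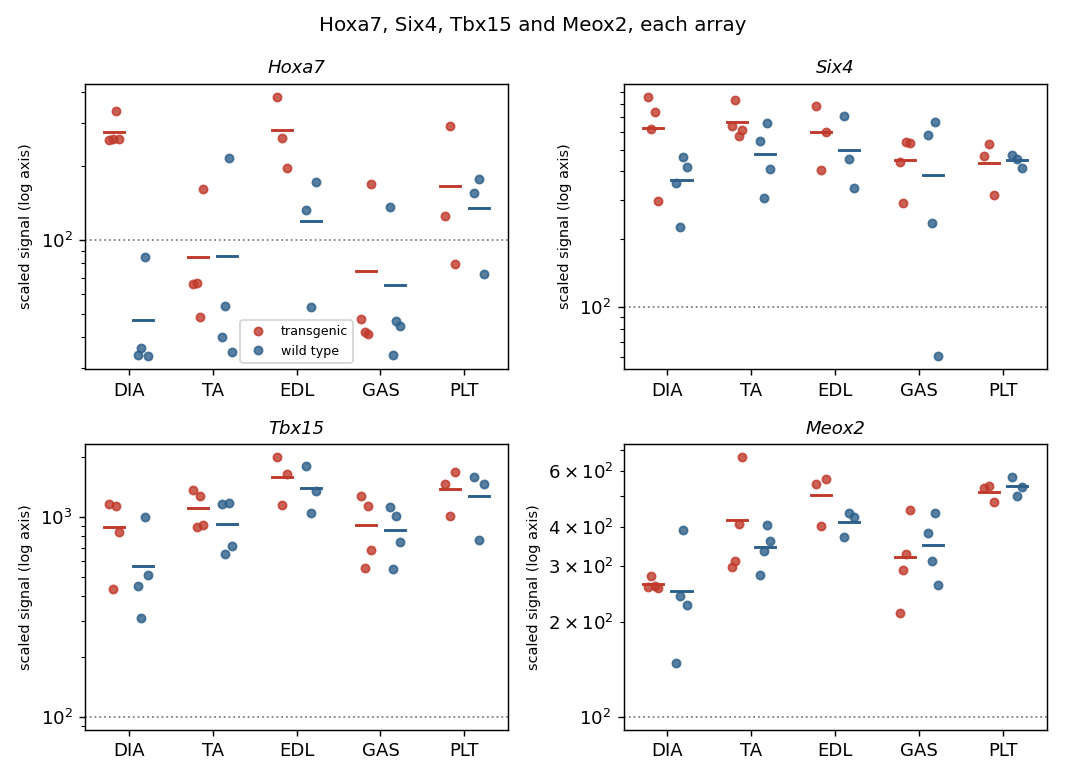
Scaled signal on each array (points, log axis) and group mean (bars) of Hoxa7, Six4, Tbx15 and Meox2 by muscle, transgenic (red) left of wild type (blue), with the floor of 100 dotted. For Hoxa7 the 4 transgenic diaphragm arrays lie at 255 to 335 and the 4 wild-type ones at 33.6 to 84.9, while the other 3 genes overlap between genotypes in the diaphragm.

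At 10 against 7 months of age, averaged over the 5 muscles, 0 of 55 genes passed with limma, as did 0% of all probe sets, and 8 had an unadjusted p under 0.05. The smallest p was that of Hoxb9, a gene under the floor on all arrays (log2 difference 0.19 ± 0.07, adjusted p = 0.34), and the next that of Hoxc6 (0.34 ± 0.13, adjusted p = 0.37; SE, limma).

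Genes that act with these factors were described beside them, from lists of 78 genes of which 62 were measured. In diaphragm against limb 1 passed as higher and 3 as lower in transgenic mice, and 1 as higher and 10 as lower in wild-type mice, where 3.41% of all probe sets were higher and 2.16% lower in transgenic mice and 7.99% and 7.55% in wild-type mice. Shox2, a homeobox gene of the upper limb segment and heart, was higher in diaphragm by 2.31 ± 0.21 in transgenic mice (adjusted p = 1.3e-08) and 1.77 ± 0.21 in wild-type mice (adjusted p = 2.3e-07; log2, limma). Rxrg, a retinoid receptor, was lower by -1.83 ± 0.28 in transgenic (adjusted p = 6.4e-05) and -1.92 ± 0.28 in wild-type mice (adjusted p = 6.9e-06; log2, limma). Irx3 was lower in diaphragm in both genotypes, and it was the gene of these lists that passed between front and back hindlimb muscles, with 0.78 ± 0.16 in transgenic (adjusted p = 0.017) and 0.94 ± 0.16 in wild-type mice (adjusted p = 0.0016; limma).

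None of the 6 measured Hox cofactors of the Meis, Pbx and Pknox families and none of the 5 measured partners of the sine oculis proteins (Eya and Dach genes) passed between diaphragm and limb in either genotype by limma. Of all probe sets 5.57% passed there in transgenic and 15.5% in wild-type mice, so lists this short could hold no call at those shares. Of 14 Polycomb and trithorax genes, which keep Hox clusters silent or active, 0 passed in transgenic mice and 2 passed as lower in wild-type diaphragm (7.55% of all probe sets), Bmi1 (-1.12 ± 0.27, adjusted p = 0.0031) and Ezh2 (-0.56 ± 0.18, adjusted p = 0.03; limma). Of the 7 myogenic factors 1 passed as lower in transgenic diaphragm (2.16% of all probe sets) and 5 in wild-type diaphragm (7.55%). Between genotypes, Myf6 was higher in transgenic mice over the 5 muscles (0.59 ± 0.12, adjusted p = 0.011, limma), where 0.7% of all probe sets passed. In diaphragm Myog, Myf6 and Mef2c passed as higher, with 1.22 ± 0.33, 1.02 ± 0.26 and 1.27 ± 0.32 (adjusted p = 0.043, 0.026 and 0.023, log2, limma). There 2.72% of all probe sets passed. Most hepatocyte markers were lower in transgenic diaphragm, as given above, and their part in these differences was not tested.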

How the data were processed

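RNA was measured on Affymetrix MG_U74Av2 arrays, 8 µg of total RNA being labelled per pool, per the labels. The deposited values are signal intensities from MAS5, per the submitters' processing notes; the sources used here do not give its version or settings. Each deposited array had a trimmed mean of 1500.93 to 1501.29, and 0 columns belonged to no sample. Signals were multiplied so that every array had a 2% trimmed mean of 500, and the log2 of signal plus 50 was then fitted in limma 3.58.1 (R 4.3.3) on the 12422 probe sets that are not controls (66 of 12488 left out), with no filter on low signals, 10 means of muscle and genotype, an age term per muscle, an intensity trend and 21 residual degrees of freedom. Symbols came from the platform annotation (10833 probe sets with 1 symbol, 396 with several, 1193 with none). Adjustment followed Benjamini and Hochberg, over all 12422 for each comparison, with a threshold of 0.05. Signals in the text are group values, and log2 differences are age-adjusted estimates. The fit was tested on simulated data with independent noise on each array. That simulation did not hold the shared deviation of same-numbered arrays given below. The number of arrays and their spread limit the precision.

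The members, lists and tests were chosen with earlier results of these data known. Named genes were all members past the threshold in a comparison and the 15 with the highest mean signal; Hoxc5, Hoxc8, Hoxd9, Hoxd10, Pitx1, Six4 and Tbx2 were added or described further after their values were seen. The lists of other cell types were skeletal muscle, satellite cell, hepatocyte, mesothelial, fibroblast, endothelial, nerve and Schwann cell, adipocyte, smooth muscle, macrophage and erythroid. In diaphragm against limb muscles the endothelial list had 0 of 7 calls in both genotypes, the satellite cell and smooth muscle lists 0 of 5 in transgenic and 1 of 5 (higher) in wild-type mice, the fibroblast list 1 of 8 in each genotype (higher in transgenic, lower in wild type) and the nerve list 1 of 7 in each (lower). Same-numbered arrays deviated together: correlations were over 0.1 in 117 of 120 pairs of groups (lowest -0.02, median 0.29). As 3 pairs were not and the labels state no pairing, the number was kept out of the model, and values with it as a block stand beside the counts it moved. Scan days (9), the replicate number, array weights, the pseudocount, a filter, quantile normalization, the hepatocyte sum as a covariate and each array in turn were tried as alternatives.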

Additional observations from a re-analysis of the deposited data

Results flagged for a closer look

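Among 96 groups of 4 arrays tested for a single distant array, 11 had one, where chance gives about 1 in 20. Hoxa7 had 335 in transgenic diaphragm replicate 1 at 10 months, against 255 to 257 on the other 3 arrays. It had 169 in transgenic gastrocnemius replicate 2 at 10 months, against 41.4 to 47.3, and 84.9 in wild-type diaphragm replicate 1 at 10 months, against 33.6 to 36.3. Pax3 had 98.7 in transgenic gastrocnemius replicate 2 at 10 months, against 25.1 to 34.1, and 145 on the wild-type array of the same muscle, age and number, against 81.4 to 89.8. Hoxb5 had 75.5 in transgenic tibialis anterior replicate 2 at 7 months, against 48.9 to 50.8, and a low 68.4 in wild-type diaphragm replicate 1 at 10 months, against 197 to 235. Hoxc9 had 85.3 in transgenic diaphragm replicate 1 at 10 months, against 52.1 to 56.7, and Meox2 had 280.1 in transgenic diaphragm replicate 2 at 7 months, against 256 to 259. Hoxc6 had 225 in transgenic gastrocnemius replicate 1 at 10 months, against 123 to 135. Hoxa11 had 244 in wild-type tibialis anterior replicate 1 at 7 months, against 138 to 145.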

How the results depend on the processing

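Counts are of the 55 genes past the threshold (limma). In this paragraph they are not set beside the share of all probe sets, so they show no trait particular to these genes. The pseudocounts 16 and 200, the filter and quantile normalization kept all 29 single calls. With scan day as a block 24 of these calls were the same and 5 were weaker. With 20 group means 27 were the same and 2 were weaker. With arrays of an empty experiment record only, the calls were 2 (transgenic) and 2 (wild type) for diaphragm against limb, 0 in both genotypes for front against back and for gastrocnemius against plantaris, 0 for the genotypes in diaphragm and 2 for the F test. With filled records only they were 5 for diaphragm against limb (transgenic), 1 for front against back (transgenic), 0 in both genotypes for gastrocnemius against plantaris, 0 for the genotypes in diaphragm and 6 for the F test; both subsets hold fewer arrays. With the hepatocyte marker signal as a covariate they were 1 (transgenic) and 0 (wild type) for diaphragm against limb and 0 for the genotypes in diaphragm, and Tbx15 in wild type reversed to 0.638 (adjusted p = 1.0); the limb arrays span little of that covariate's range, and the cause was not tested. With 20 group means they were 1 for front against back (transgenic) and 7 for the F test, and with scan day as a block 1 for front against back (transgenic) and 6 for the genotypes over the 5 muscles. Array weights gave 3 for the genotypes over the 5 muscles, 3 in diaphragm and 1 for the difference in transgene effect. With the replicate block, whose numbers coincide with the state of the experiment record, they were 1 for tibialis anterior against extensor digitorum longus, 3 for the genotypes over the 5 muscles, 3 in diaphragm and 1 in tibialis anterior. Without the 2 arrays with a Gapdh ratio over 3, gastrocnemius against plantaris had 1 (wild type). Without Gh and Tnp1, 17 genes were above background on at least 18 arrays.

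Leaving out 1 array at a time gave 7 to 12 (transgenic) and 8 to 12 (wild type) for diaphragm against limb, 1 to 2 and 1 to 1 for front against back, 0 to 2 and 1 to 2 for gastrocnemius against plantaris, and 0 to 1 for tibialis anterior against extensor digitorum longus. For the genotypes it gave 0 to 2 over the 5 muscles, 0 to 2 in diaphragm and 0 to 1 in tibialis anterior, 0 to 0 in the other 3 muscles, for the difference in effect and for age, and 6 to 13 for the F test. Single diaphragm arrays ended the transgenic calls of Six2 (adjusted p up to 0.076), Hoxa10 (0.073), Hoxa9 (0.058) and Tbx3 (0.071) and the wild-type calls of Tbx15 (0.073) and Meox2 (0.12), by limma. Low signals near background limit most of these genes.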

Other observations

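Of the probe sets outside the rule, 2 are annotated to Hoxa11os, the RNA opposite Hoxa11. The brighter had a mean of 75.1 ± 32.0 in transgenic diaphragm (SD, n = 4) and 148 ± 83.2 in transgenic limb muscles (SD, n = 14), and of 165 ± 75.6 in wild-type diaphragm and 187 ± 108 in wild-type limb muscles. The other had 21.9 ± 4.06 in transgenic diaphragm and 55.5 ± 37.6 in transgenic limb muscles, and 22.7 ± 11.7 in wild-type diaphragm and 67.2 ± 46.9 in wild-type limb muscles. For the second, diaphragm minus limb was -0.51 ± 0.22 in transgenic (adjusted p = 0.24) and -0.62 ± 0.22 in wild-type mice (adjusted p = 0.06; log2, SE, limma), so neither passed. A probe set shared by Hoxb7 and Hoxb8 had 264 ± 92.1 in transgenic and 402 ± 168 in wild-type diaphragm (SD, n = 4 each), and 309 ± 109 in transgenic and 449 ± 228 in wild-type limb muscles (SD, n = 14 each).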
